A study of Yarrowia lipolytica with 9 samples.

Results

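The report follows 6 oxidoreductase loci of the yeast Yarrowia lipolytica that belong to the making of sugar alcohols: mannitol dehydrogenase YALI0B16192g, erythrose reductase YALI0F18590g, and the aldo-keto reductases YALI0D07634g, YALI0C13508g, YALI0B07117g and YALI0C09119g. They were taken by locus tag, for the enzyme activity assigned to each, by a rule that uses no measured value. The choice was nevertheless made with earlier results of these data known. All 6 loci have a row among the 6170 in the deposited table. The series profiles the mRNA of the wild-type strain W29 in bioreactors held at pH 2.0, 4.0 or 6.0, with 3 bioreactors and 3 libraries at each pH. Every culture had the same medium, with 50 g/L glucose, 1.7 g/L yeast nitrogen base, 1 g/L ammonium sulfate and 1.5 g/L yeast extract, and cells were taken at hour 50. No group carries a mutation or a transgene, and the pH of the medium is the factor the labels vary. The study's design compares gene activity across the acidity of the medium.

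Yeasts make sugar alcohols by reducing sugars with NADPH or NADH. Mannitol dehydrogenase interconverts fructose and mannitol. Erythritol is made from a tetrose phosphate of the pentose phosphate pathway, which loses its phosphate to give erythrose, and erythrose reductases then reduce erythrose to erythritol. Yarrowia lipolytica is known for secreting both polyols, and for making erythritol in acidic and osmotically stressful media. Several aldo-keto reductases, a family of NADPH-dependent enzymes that reduce aldehydes and aldose sugars, have been put forward as erythrose reductases in this yeast, and YALI0D07634g is also known as a xylose reductase.

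Values are CPM, read counts that the authors scaled for the effective size of each library, and each library rests on 12974822 to 17701766 reads recovered from those values. All 6 loci passed the filter of at least 1 CPM in at least 3 libraries, as did 6165 of the 6170 rows. Read numbers per library ran from 503 to 9832 for mannitol dehydrogenase, from 15670 to 29474 for erythrose reductase, and from 54 to 118 for YALI0C09119g, the locus with the fewest reads. The pairs of pH 2.0 libraries that include replicate A differed most, with a chi-square of 50.8 to 55.1 per degree of freedom, against 8.76 to 37.3 for the other pairs of replicates. Rim101 YALI0B13640g, the transcription factor of the response to ambient pH, rose at both steps, from 181 ± 3.16 through 261 ± 12.8 to 738 ± 45.8 CPM (SD, n = 3 each). The neighbouring levels of that order differed by 0.53 and 1.49 on the log2 scale. Mhy1 YALI0B21582g, listed with Rim101 as a check of the series, did not rise in this way. Its mean went from 39.4 ± 3.52 through 28.0 ± 6.45 to 34.9 ± 4.02 CPM (SD, n = 3 each). Mhy1 was called lower at pH 4.0 than at pH 2.0 (log2 difference -0.50, adjusted p = 0.0181, limma). Its differences of pH 6.0 from pH 4.0 (0.32, adjusted p = 0.109, limma) and from pH 2.0 (-0.17, adjusted p = 0.346, limma) were not called.

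Mannitol dehydrogenase YALI0B16192g rose at both pH steps, by a factor of 18.0 in mean CPM between pH 2.0 and pH 6.0. The libraries of pH 2.0 held 30.8, 37.9 and 33.6 CPM in replicates A, B and C, those of pH 4.0 held 98.3, 99.7 and 121 CPM, and those of pH 6.0 held 562, 608 and 673 CPM. All 3 groups stand apart, the highest library of each pH lying under the lowest of the next. In a bulk culture, a larger share of cells that use a gene and more RNA per cell cannot be told apart.

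Between pH 2.0 and pH 4.0 mannitol dehydrogenase YALI0B16192g went from 34.1 ± 3.58 to 106 ± 12.5 CPM (SD, n = 3 each), a factor of 3.11. On the scale of log2(CPM + 1) the difference was 1.61 (SE 0.11, adjusted p = 3.76e-06, limma). Between pH 4.0 and pH 6.0 it went on to 614 ± 56.0 CPM, a factor of 5.79 and a log2 difference of 2.52 (SE 0.11, adjusted p = 5.69e-08, limma). The upper step was the larger, with a difference between the log2 values of the steps of 0.92 (SE 0.19, adjusted p = 0.00276, limma), where both steps span 2.0 pH units. Of the 6165 genes tested, 15 had a larger log2 difference than its 4.13 between pH 6.0 and pH 2.0, 62 had a larger one over the lower step and 32 over the upper step. The calls of all 3 pairwise differences and of the difference between the steps held under each of the alternatives tried.

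**Figure D1:**
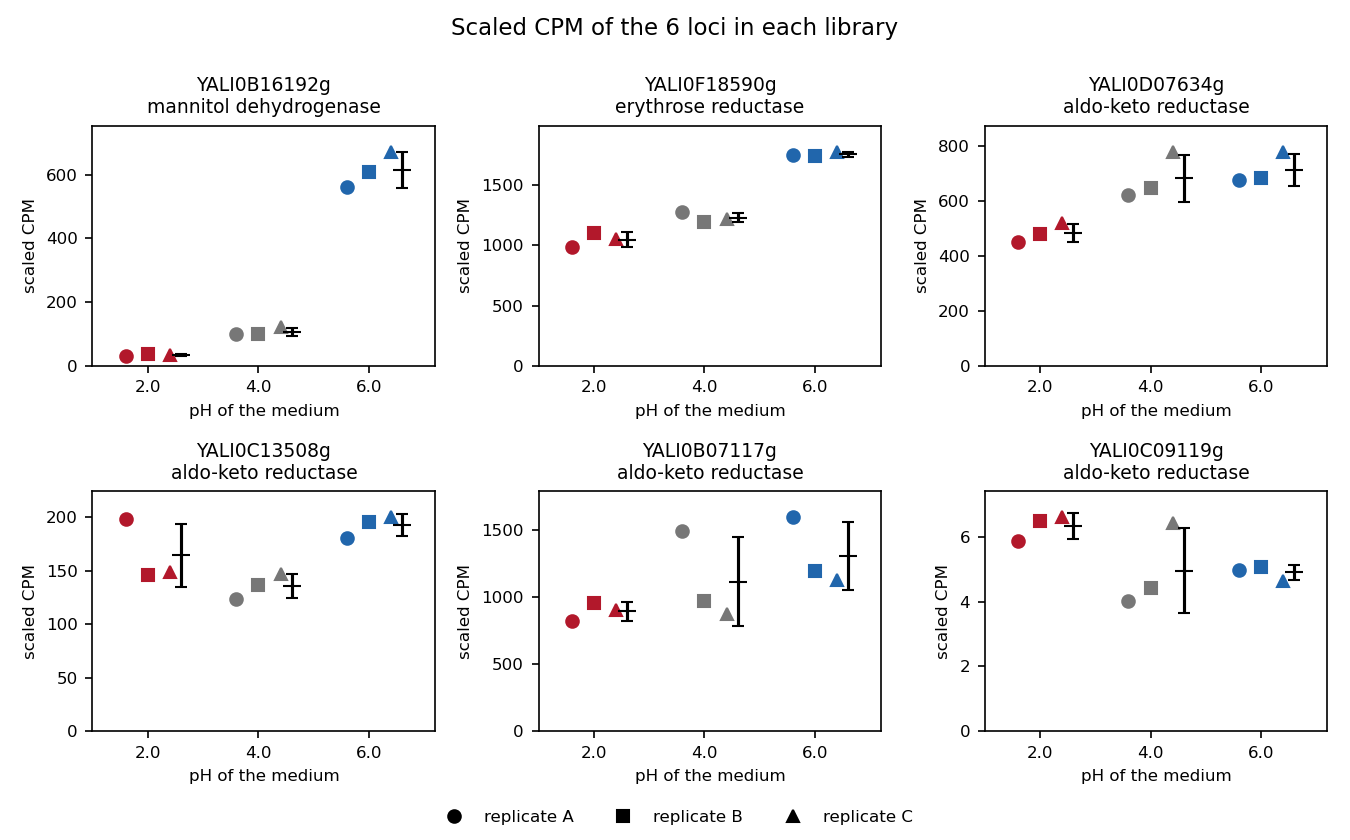
Scaled CPM of each locus (vertical axis, starting at 0, with its own scale in each panel) in the 9 libraries, by the pH of the medium (horizontal axis). Symbols are replicates A, B and C, and black bars are the mean ± SD of 3 libraries; mannitol dehydrogenase climbs from 34.1 to 614 CPM, while YALI0C09119g stays between 4.02 and 6.64 CPM in every library.

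Erythrose reductase YALI0F18590g, which reduces erythrose to erythritol, was higher at pH 6.0 than at either lower pH, by far less than mannitol dehydrogenase. It held 986, 1103 and 1054 CPM in replicates A, B and C of pH 2.0, 1273, 1196 and 1220 CPM at pH 4.0, and 1752, 1738 and 1778 CPM at pH 6.0. The 3 groups do not overlap, and the coefficient of variation at pH 6.0 was 1.14%. The mean was 1047 ± 58.7 CPM at pH 2.0 (SD, n = 3). It was 1230 ± 39.2 CPM at pH 4.0 and 1756 ± 20.1 CPM at pH 6.0, a log2 difference of 0.51 (SE 0.07, adjusted p = 0.000185, limma). Against pH 2.0 the log2 difference at pH 6.0 was 0.75 (SE 0.07, adjusted p = 3.77e-06, limma), and 938 of the 6165 genes had a larger one. The difference between pH 4.0 and pH 2.0 was 0.23 (SE 0.07, adjusted p = 0.0118, limma), a call that depends on the scaling: with equal totals the value of YALI0F18590g was 0.02 (adjusted p = 0.750), and under quantile normalization it was -0.13 (adjusted p = 0.0620). The 2 steps of YALI0F18590g were not called as different under the deposited scaling (0.28, adjusted p = 0.0674, limma). They were called so without pH 2.0 replicate A (0.33, adjusted p = 0.0371), with equal totals (0.48, adjusted p = 0.00509) and with quantile-normalized values (0.73, adjusted p = 0.000446).

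The aldo-keto reductase YALI0D07634g, the locus also known as a xylose reductase, rose over the lower step and had no called change over the upper one. Its libraries held 451, 479 and 518 CPM at pH 2.0, 620, 648 and 778 CPM at pH 4.0, and 676, 683 and 779 CPM at pH 6.0. Every library of pH 4.0 and of pH 6.0 lies above those of pH 2.0, whereas the pH 4.0 and pH 6.0 libraries overlap. The mean went from 482 ± 33.5 to 682 ± 84.8 CPM over the lower step (SD, n = 3 each), a log2 difference of 0.49 (SE 0.10, adjusted p = 0.00142, limma). It was 713 ± 57.5 CPM at pH 6.0, which differed from pH 4.0 by 0.07 on the log2 scale, with a 95% interval of -0.15 to 0.29 (adjusted p = 0.593, limma). Under quantile normalization the values of YALI0D07634g against pH 2.0 were 0.18 at pH 4.0 (adjusted p = 0.180) and 0.22 at pH 6.0 (adjusted p = 0.0918), and neither was called. The difference between its steps was -0.43 (adjusted p = 0.0608, limma). It was called without pH 4.0 replicate A (-0.56, adjusted p = 0.0438) and without pH 6.0 replicate C (-0.49, adjusted p = 0.0434). It was also called with DESeq2 (-0.45, adjusted p = 0.0398) and with the replicate letter as a block in limma (-0.43, adjusted p = 0.0175).

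The aldo-keto reductase YALI0C13508g, put forward as an erythrose reductase, had its lowest mean at pH 4.0 and rose from there to pH 6.0. At pH 2.0 replicate A held 198 CPM, and replicates B and C held 146 and 149 CPM. At pH 4.0 the libraries held 124, 136 and 147 CPM, and at pH 6.0 they held 181, 196 and 200 CPM. Replicate A of pH 2.0 lies among the libraries of pH 6.0, while the other pH 2.0 libraries lie beside those of pH 4.0. The upper step was called, from 136 ± 11.5 to 192 ± 10.3 CPM (SD, n = 3 each; log2 difference 0.50, SE 0.12, adjusted p = 0.00471, limma).

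For the same locus YALI0C13508g the lower step was not called (log2 difference -0.26, 95% interval -0.52 to -0.01, adjusted p = 0.0683, limma). It was called lower without pH 2.0 replicate B (-0.34, adjusted p = 0.0346) or C (-0.33, adjusted p = 0.0477), with equal totals (-0.47) and under quantile normalization (-0.41). The difference between pH 6.0 and pH 2.0 was 0.24 (adjusted p = 0.0851, limma), and without pH 2.0 replicate A it was 0.38 (adjusted p = 0.00316). Its lowest value was 0.01 among all the alternatives and 0.16 among the fits that left out 1 library. The steps of YALI0C13508g differed by 0.77 (SE 0.20, adjusted p = 0.00995, limma), a call that was lost without pH 4.0 replicate A (0.64, adjusted p = 0.0543).

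The aldo-keto reductase YALI0B07117g, also put forward as an erythrose reductase, varied more between replicates than erythrose reductase did at each pH. Its libraries held 815, 952 and 904 CPM at pH 2.0, 1492, 970 and 874 CPM at pH 4.0, and 1595, 1188 and 1123 CPM at pH 6.0. Replicate A was the highest library at pH 4.0 and at pH 6.0 and the lowest at pH 2.0. The coefficient of variation was 7.78% at pH 2.0, 29.9% at pH 4.0 and 19.6% at pH 6.0. The groups of pH 2.0 and pH 6.0 do not overlap, and their log2 difference of 0.53 was called (SE 0.19, adjusted p = 0.0258, limma). That call was lost without pH 2.0 replicate A (0.47, adjusted p = 0.0717), without pH 6.0 replicate A (0.38, adjusted p = 0.109), with equal totals (0.32) and under quantile normalization (0.26). Neither step of YALI0B07117g was called, with 95% intervals of -0.14 to 0.70 for the lower and -0.17 to 0.67 for the upper, and under quantile normalization the lower step turned (-0.06, adjusted p = 0.785). Without pH 4.0 replicate A the upper step was called (0.48, adjusted p = 0.0233).

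The aldo-keto reductase YALI0C09119g had its highest mean at pH 2.0. It held 5.88, 6.51 and 6.64 CPM at pH 2.0, 4.02, 4.44 and 6.46 CPM at pH 4.0, and 4.99, 5.09 and 4.66 CPM at pH 6.0. The libraries of pH 2.0 all lie above those of pH 6.0, and replicate C of pH 4.0 lies with the pH 2.0 libraries. No pairwise difference was called: the log2 values were -0.31 for pH 6.0 against pH 2.0 (95% interval -0.65 to 0.02, adjusted p = 0.0841, limma), -0.32 for pH 4.0 against pH 2.0 (adjusted p = 0.0874) and 0.01 for pH 6.0 against pH 4.0 (adjusted p = 0.975). Without pH 4.0 replicate C the first was called lower at the same value (-0.31, adjusted p = 0.0272), as was the second (-0.49, adjusted p = 0.00683). The first was also called lower when the pH 2.0 and pH 6.0 libraries were fitted alone (-0.31, adjusted p = 0.0272, limma). With equal totals both were called lower (-0.50 and -0.49), whereas under quantile normalization both turned, with neither called (0.10, adjusted p = 0.574, and 0.07, adjusted p = 0.703). The difference between the steps of YALI0C09119g was called under 1 alternative, without pH 4.0 replicate C (0.67, adjusted p = 0.0322). At this level a pseudocount of 1 CPM makes a log2 difference smaller than the ratio of the CPM values.

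**Figure D2:**
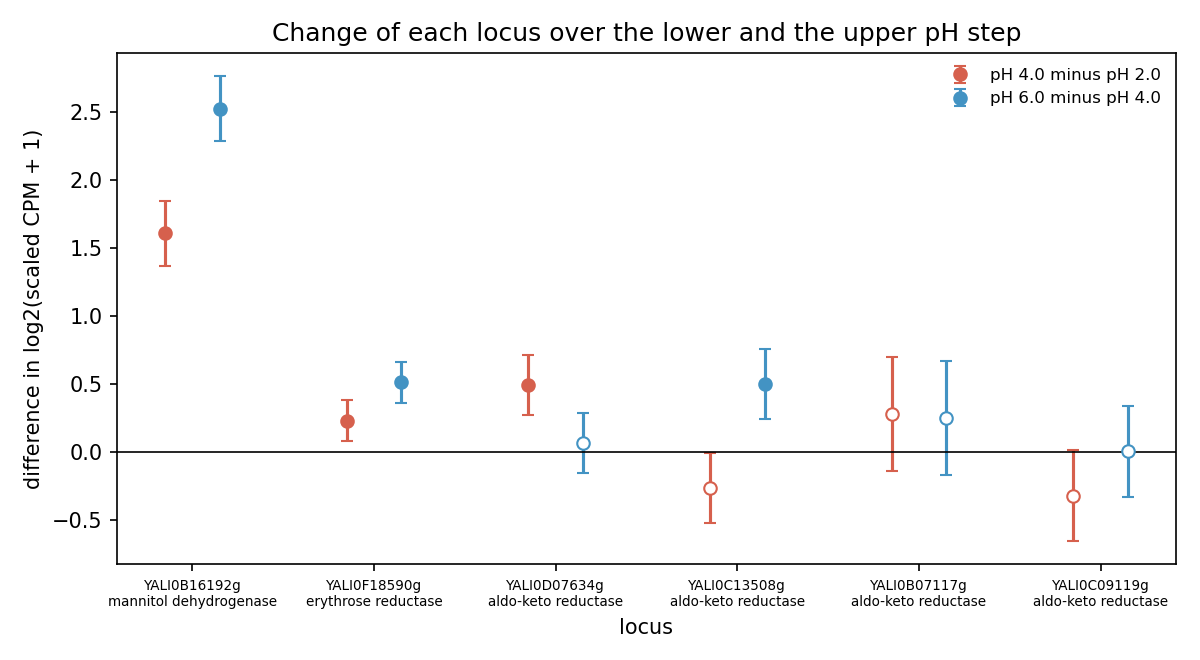
Difference in log2(CPM + 1) over the lower pH step (pH 4.0 minus pH 2.0, red) and the upper one (pH 6.0 minus pH 4.0, blue) for each locus, with 95% intervals from limma. Filled symbols were called at an adjusted p under 0.05; mannitol dehydrogenase stands at 1.61 and 2.52, and the other 5 loci lie between -0.32 and 0.51.

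Set side by side, 4 of the 6 loci had a called increase between pH 2.0 and pH 6.0 and none a called decrease, where 73.0% of all genes were called (35.1% higher, 37.9% lower). Over the lower step 3 were called higher and none lower (of all genes 63.4% were called, 30.8% higher and 32.6% lower), and over the upper step again 3 higher and none lower (of all genes 51.5%, 25.7% higher and 25.8% lower). Mannitol dehydrogenase YALI0B16192g and erythrose reductase YALI0F18590g were called higher at both steps, as were 9.44% of all genes. The moderated F test over the 3 pH values called 4 loci against 84.0% of all genes, the exceptions being YALI0B07117g (adjusted p = 0.0611) and YALI0C09119g (adjusted p = 0.111). Over the alternatives that count of loci ran from 3 to 6, and with 1 library left out from 4 to 6. The signed log2 difference was called higher over the upper step than over the lower for 2 loci and lower for none. For all genes the difference between the steps was called in 50.4% (26.1% higher, 24.3% lower). A smaller fall over the upper step also counts as higher here. The libraries of pH 2.0 and pH 6.0 do not overlap for 5 loci, 4 higher and 1 lower, as for 77.9% of all genes (37.6% higher, 40.3% lower). Over each step the groups do not overlap for 3 loci, all higher, as for 67.6% of all genes over the lower step (32.3% higher, 35.3% lower) and 62.2% over the upper (31.7% higher, 30.5% lower). The median log2 difference of the 6 loci between pH 6.0 and pH 2.0 was 0.55, beside -0.04 for all genes. It was 0.33 with equal totals and 0.24 under quantile normalization. With equal totals, a scaling that moves the median of all genes to -0.25, 3 loci were called higher and 1 lower between pH 6.0 and pH 2.0, and 2 higher and 2 lower between pH 4.0 and pH 2.0. Under quantile normalization the counts were 2 higher and none lower for the former, and 1 higher and 1 lower for the latter.

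Mannitol dehydrogenase was also set against each reductase within each library, as a difference of their log2(CPM + 1) values. The scaling of a library enters such a ratio only through the pseudocount, which weighs most on YALI0C09119g, the reductase with the lowest CPM: its gain between pH 2.0 and pH 6.0 was 4.18 with a pseudocount of 5. The log2 ratio of mannitol dehydrogenase to erythrose reductase YALI0F18590g went from -4.90 ± 0.07 at pH 2.0 through -3.53 ± 0.18 at pH 4.0 to -1.52 ± 0.12 at pH 6.0 (SD, n = 3 each). That is a gain of 1.38 over the lower step and 2.01 over the upper one. Between pH 2.0 and pH 6.0 the ratio to the other reductases gained 3.57 for YALI0D07634g, 3.89 for YALI0C13508g, 3.60 for YALI0B07117g and 4.44 for YALI0C09119g. In all 15 comparisons (5 ratios, 3 pairs of pH values) the libraries of the higher pH lay above those of the lower pH, each with an exact two-sided permutation p of 0.1, the smallest that 3 against 3 libraries can give. The 5 ratios share mannitol dehydrogenase as numerator, whose own groups stand apart. The 15 comparisons are therefore not separate results and restate its rise. Lengths differ between genes, so the ratios are compared between pH values only.

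**Figure D3:**
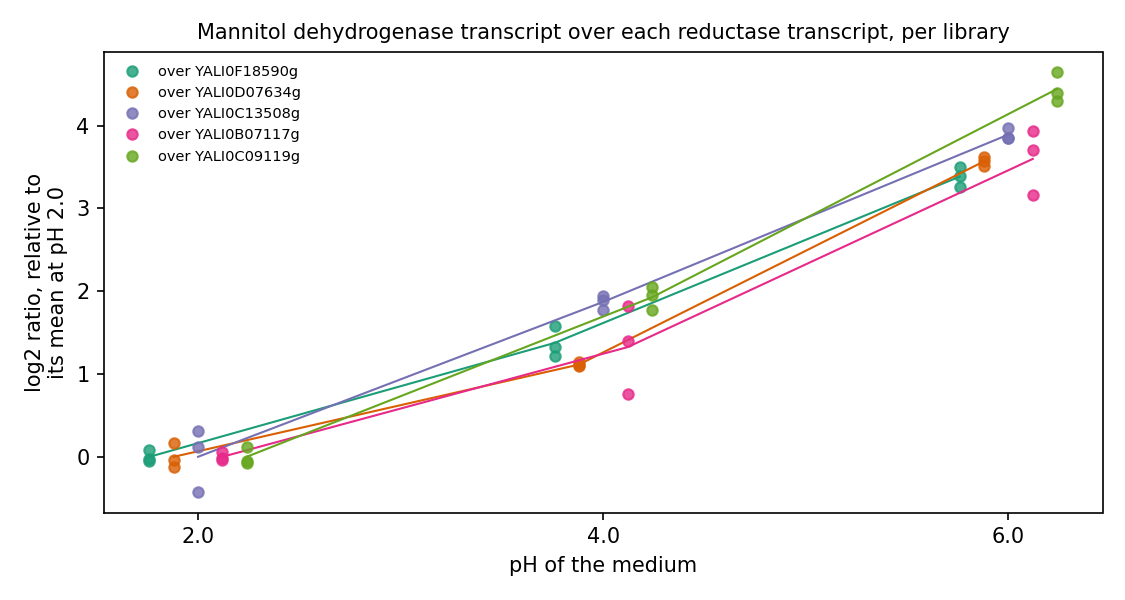
Log2 ratio of the mannitol dehydrogenase transcript to each reductase transcript in each library (points), set to 0 at its mean of pH 2.0 (vertical axis), by the pH of the medium (horizontal axis, points of the 5 ratios shifted sideways for legibility). Lines join the means of 3 libraries; gains at pH 6.0 run from 3.39 over YALI0F18590g to 4.44 over YALI0C09119g.

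The tags of Yarrowia genes carry the letter of the chromosome and are numbered along it, so that genes with adjacent tags neighbour each other. The 6 loci lie on chromosomes B, C, D and F, and none of them is among the 2 nearest measured tags on either side of another. For mannitol dehydrogenase YALI0B16192g on chromosome B, these 4 neighbouring loci had log2 differences of -0.70 to 0.19 between pH 6.0 and pH 2.0, beside its own 4.13. Erythrose reductase YALI0F18590g on chromosome F had neighbours at -0.24 to 0.44, beside its own 0.75. For YALI0D07634g the neighbours spanned -0.06 to 0.92 and for YALI0C13508g they spanned -0.83 to 1.42, ranges that hold the values of these loci. The range of YALI0C09119g, -1.14 to 0.46, also holds its own value of -0.31. Its lower end comes from a neighbour with 1.85 CPM at pH 2.0 and 0.295 CPM at pH 6.0, where the pseudocount of 1 CPM weighs heavily. The range of YALI0B07117g, -0.66 to 0.35, lies under its own 0.53.

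To find the loci with the most similar pattern, every gene was centred on its own mean over the 9 libraries, and the root mean square difference of log2(CPM + 1) to each locus was taken over 5554 other genes with a mean of at least 10 CPM at some pH. The data do not pair these identifiers with names. The loci nearest to mannitol dehydrogenase were YALI0B22814g, at a distance of 0.22, and YALI0A01023g, at 0.24, where the median gene lay at 1.72. YALI0A01023g had a mean of 49.6 CPM at pH 2.0, 209 CPM at pH 4.0 and 883 CPM at pH 6.0. YALI0B22814g went from 0.0656 CPM at pH 2.0, under the floor of 3 reads (0.169 to 0.234 CPM), through 1.45 to 16.8 CPM. Its nearness rests on the pseudocount of 1 CPM, which lies above its level at pH 2.0, and does not mean a like ratio of CPM values. For erythrose reductase YALI0F18590g the nearest gene lay at 0.0357 and the median gene at 0.410. Transketolase YALI0E06479g, the pentose phosphate enzyme that makes and uses the tetrose phosphate, ranked 3 of those 5554 at 0.0626. The other 6 listed pentose phosphate genes ranked from 179 to 3428, with transaldolase YALI0F15587g at 450. Xylitol dehydrogenase YALI0E12463g, the enzyme after xylose reductase in xylose use, had rank 515 for YALI0D07634g (0.181, where the median gene lay at 0.381). Xylulokinase YALI0F10923g had rank 1312 for that locus. The listed pentose phosphate genes ranked from 25 (YALI0B15598g, 0.101) to 2938 (YALI0B06941g, 0.399) for it, so the likeness is not particular to xylose use.

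The pentose phosphate pathway supplies NADPH and the tetrose phosphate, and of its 7 listed genes 6 had a called increase and 1 a called decrease between pH 2.0 and pH 6.0, a split that was the same with equal totals, under quantile normalization and without any 1 library. Of all genes 73.0% were called in that comparison, 35.1% higher and 37.9% lower. Transketolase YALI0E06479g went from 2280 ± 152 to 3604 ± 70.3 CPM (SD, n = 3 each; log2 difference 0.66, SE 0.08, adjusted p = 1.98e-05, limma). Transaldolase YALI0F15587g, the other enzyme that handles the tetrose phosphate, rose by 0.45 (SE 0.07), and ribulose-phosphate epimerase YALI0C11880g rose by 0.77 (SE 0.07). The lower gene was the ribose-phosphate isomerase YALI0B06941g, which fell from 110 ± 3.79 to 85.0 ± 2.97 CPM (log2 difference -0.37, SE 0.07, adjusted p = 0.000625, limma). Over the lower step 6 of the 7 were called higher and none lower (4 higher and 1 lower with equal totals), where 63.4% of all genes were called. Transketolase was among them (0.20, adjusted p = 0.0416, limma), but its call was lost with equal totals (-0.00984) and in 7 of the 9 fits that left out 1 library (adjusted p up to 0.112). The call was also lost under quantile normalization (0.00948, adjusted p = 0.914, limma). It was lost too with the replicate letter as a block (adjusted p = 0.0784, limma) and with the 2 groups fitted alone (adjusted p = 0.0999, limma). Over the upper step 4 were higher and 1 lower, where 51.5% of all genes were called, and the higher ones numbered 2 without pH 4.0 replicate B, pH 6.0 replicate B or pH 6.0 replicate C, and 3 or 4 without each of the others.

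Of 5 genes of erythritol use, which break erythritol down again, 4 had a called increase between pH 2.0 and pH 6.0 and none a called decrease, where 35.1% of all genes were called higher. Erythritol dehydrogenase YALI0F01650g, the first step of that route, held 108, 230 and 154 CPM at pH 2.0, 180, 255 and 260 CPM at pH 4.0, and 326, 427 and 328 CPM at pH 6.0, with overlap between pH 2.0 and pH 4.0 (log2 difference 1.19 for pH 6.0 against pH 2.0, SE 0.24, adjusted p = 0.00111, limma). Erythrulose kinase YALI0F01606g, the next step, rose by 1.43 (SE 0.27), and the transcription factor of the route, YALI0F01562g, rose by 0.82 (SE 0.11). In the main limma fit none of the 5 was called over the lower step, where 63.4% of all genes were called. In the same fit 4 were called higher over the upper step, where 25.7% of all genes were. With DESeq2 the lower step was called for YALI0F01650g (0.51, adjusted p = 0.0438) and YALI0F01606g (0.61, adjusted p = 0.0287). Over the upper step the count was 1 without pH 4.0 replicate A or C or pH 6.0 replicate B or C, 2 without pH 6.0 replicate A, and 3 or 4 without each of the others. Over the lower step it was 3 without pH 2.0 replicate B and 2 without pH 4.0 replicate A. Under quantile normalization 1 was called higher over each step.

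In xylose use, xylitol dehydrogenase YALI0E12463g rose over the lower step as YALI0D07634g did, from 94.7 ± 8.18 to 173 ± 34.0 CPM (SD, n = 3 each; log2 difference 0.85, SE 0.13, adjusted p = 0.000271, limma), and stood at 175 ± 18.6 CPM at pH 6.0. Xylulokinase YALI0F10923g, which takes xylulose into the pentose phosphate pathway, was not called in any pairwise difference, with log2 values of -0.03 and 0.11 over the steps. With equal totals YALI0F10923g was called lower over the lower step (-0.23, adjusted p = 0.0149). Both enzymes of hexose phosphorylation, hexokinase YALI0B22308g (log2 difference -0.28, SE 0.08) and glucokinase YALI0E15488g (-0.35, SE 0.08), had a called decrease between pH 2.0 and pH 6.0. Of all genes 37.9% were called lower in that comparison. Hexokinase was called lower over the lower step (-0.29) and not called over the upper (0.01). Glucokinase was not called over the lower step (0.16) and was called lower over the upper (-0.51).

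YALI0D18964g was listed as a possible second mannitol dehydrogenase, an assignment that is not sure, and was named after its values were seen; it fell at both steps. Its libraries held 638, 653 and 598 CPM at pH 2.0, 355, 419 and 440 CPM at pH 4.0, and 287, 276 and 292 CPM at pH 6.0, with no overlap between the groups. Its log2 difference was -0.64 over the lower step (SE 0.08, adjusted p = 0.000104, limma) and -0.50 over the upper (SE 0.08, adjusted p = 0.000825, limma). Both falls were also called with equal totals and under quantile normalization. Of the 17 listed genes of these routes, 11 had a called increase and 4 a called decrease between pH 2.0 and pH 6.0, where 73.0% of all genes were called. Their median log2 difference was 0.66, and it was 0.45 with equal totals and 0.36 under quantile normalization.

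**Figure D4:**
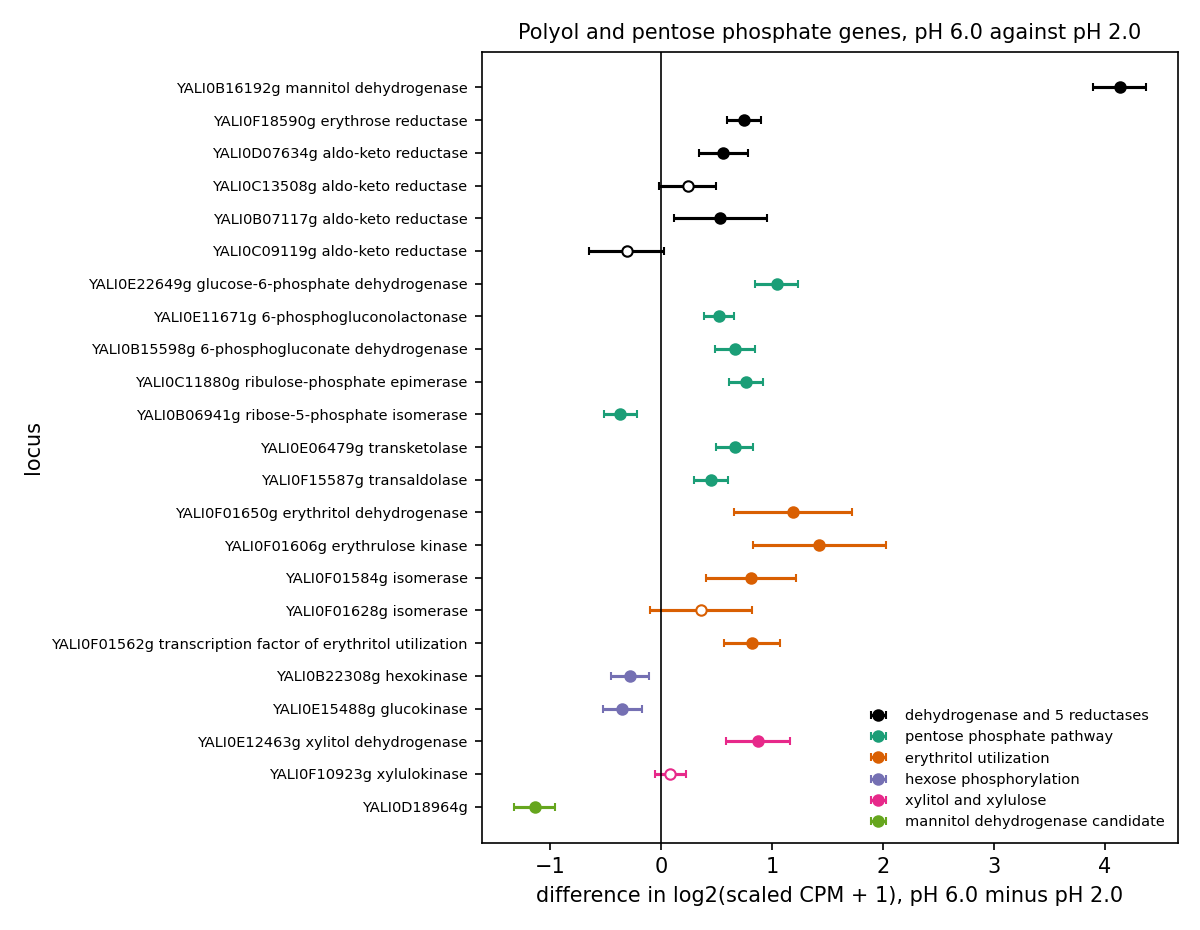
Difference in log2(CPM + 1) between pH 6.0 and pH 2.0 (horizontal axis) for the dehydrogenase and 5 reductases (black) and the 17 other listed genes, coloured by list, with 95% intervals from limma. Filled symbols were called at an adjusted p under 0.05; mannitol dehydrogenase lies at 4.13, and the other genes lie between -1.14 and 1.43.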

How the data were processed

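The deposited values are, per the file headers, a normalized coverage signal, in which the authors took CPM per gene and then applied the effective library size that edgeR computes. The submitters' processing notes list the programs edgeR, HTSeq, TopHat2 2.0.10, Trimmomatic 0.30 and bcl2fastq 1.8.4. No settings, genome build, annotation or strand rule of the counting are stated in the material analysed, so values of overlapping or near-identical genes are uncertain. In every library 100% of the values came out whole (to within 0.01 reads) when divided by the worth of 1 read, which gave whole reads back.

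The filter kept genes that reached 1 CPM in 3 or more libraries. Their log2(CPM + 1) values were tested in R 4.3.3 by limma 3.58.1, using a mean-variance trend and a single model for all 9 libraries (1 mean per pH, 6 residual degrees of freedom). P-values are two-sided and were adjusted by Benjamini-Hochberg over all 6165 genes, with calls made under 0.05. Equal totals means that each library was rescaled to the same sum, since sums of the deposited values lay between 904216 and 1094635. Because the labels describe triplicate bioreactors, libraries were taken as separate cultures. On recovered reads, the quasi-likelihood test of edgeR 4.0.16 called 4512 genes between pH 6.0 and pH 2.0 and DESeq2 1.42.0 called 4469, beside 4498 in limma. The code was tested on simulated data.

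Locus functions are general knowledge: 0 of the identifiers matched the reference table of 8689 genes, and no sequence or coordinate is given. The 6 loci, the 5 lists of 17 other genes and the naming rule (all members; listed genes with a sure role, and outside the rule YALI0D18964g, whose role is not sure; the 2 nearest patterns, printed for mannitol dehydrogenase; neighbouring tags as ranges) were chosen with earlier results of these data known.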

Additional observations from a re-analysis of the deposited data

How the results depend on the processing

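Each value was recomputed with another pseudocount (0.25 or 5), with the filter dropped or raised to 10 CPM, with libraries scaled to equal totals or quantile normalized, and with a replicate block. It was also recomputed without the variance trend, from the 2 groups compared alone, by edgeR and by DESeq2, and with each library left out. Of 470 values of the 6 loci under these settings, 442 stayed on their side of the threshold, 8 lost a call, 19 gained one and 1 called value turned. Among the 442, 18 values that were not called changed sign, all of them of YALI0C09119g or YALI0B07117g. The called value that turned was YALI0F18590g between pH 4.0 and pH 2.0 under quantile normalization (-0.13). Of the other listed genes over the lower step, transketolase YALI0E06479g turned and lost its call with equal totals (-0.00984, adjusted p = 0.907, limma). Transaldolase YALI0F15587g did so under quantile normalization (-0.000836, adjusted p = 0.992, limma). YALI0B06941g and YALI0E15488g were not called in the main fit and turned to a called decrease. For YALI0B06941g this was with equal totals (-0.19, adjusted p = 0.0268, limma), for YALI0E15488g under quantile normalization (-0.17, adjusted p = 0.0442, limma). The cause was not tested. Under quantile normalization 2 of the 6 loci, in place of 4, were called between pH 6.0 and pH 2.0. With a pseudocount of 5 the gain of the log2 ratio of mannitol dehydrogenase between pH 2.0 and pH 6.0 was 3.24 over YALI0F18590g, 3.43 over YALI0D07634g and 4.18 over YALI0C09119g; it was 2.41 over YALI0D07634g for the upper step and 1.70 over YALI0C09119g for the lower one. A filter at 10 CPM leaves YALI0C09119g untested.

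Libraries of the same letter showed no clear pairing: 3 of 9 such pairs had a correlation of deviations over 0.1 (range -0.204 to 0.269). Pairs of different letters ranged from -0.291 to 0.218. Between pH 4.0 and pH 6.0 the same-letter values were 0.269, 0.0869 and 0.108 for A, B and C. Same-letter pairs with a pH 2.0 library lay between -0.204 and 0.122. With the replicate block 4, 3 and 3 of the 6 loci were called for pH 6.0 against 2.0, pH 4.0 against 2.0 and pH 6.0 against 4.0, as without it. For all genes the block gave 4430, 3853 and 3106 calls; it gave 5130 in the F test with 5 of the 6 loci, and 3036 for the difference between the steps with 3 of them, YALI0D07634g being added (-0.43, adjusted p = 0.0175). Of the 5 erythritol genes the block called 5 between pH 6.0 and pH 2.0 and 2 over the lower step, YALI0F01650g (adjusted p = 0.0101) and YALI0F01606g (adjusted p = 0.0110). Equal totals split the calls of all genes into 1522 higher and 3005 lower for pH 6.0 against 2.0, 1267 and 2873 for pH 4.0 against 2.0, and 2074 and 1001 for the difference between the steps. The deposited scaling gave 2164 and 2334, 1900 and 2007, and 1609 and 1499. With 54 to 118 reads per library, depth limits what can be said of YALI0C09119g.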
